A study of Mus musculus with 2 samples.

Results

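The genes described here are 10 known markers of adventitial fibroblasts: Pi16, Dpp4, Ly6a, Cd34, Mfap5, Clec3b, Scara5, Efemp1, Sema3c and Thy1. They were chosen by name, as genes known for these cells, and matched to probes by the gene symbol in the platform's annotation. This list and the other gene lists below were chosen with earlier results of these data known. Of the 10 genes, 9 had a probe among the 19321 named genes of the array, and all 9 were above background on both arrays. No probe was matched to Ly6a by symbol or by gene ID, so Ly6a was not analysed here. The 9 genes were read by 10 probes, with 2 probes for Thy1.

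RNA came from the gastrocnemius, a calf muscle, of 2 female mice aged 10 weeks. The control mouse was wild type for the Cre transgene and carried R26-DTA, a diphtheria toxin A gene at the Rosa26 locus that stays silent without Cre. Its littermate, called depleted here, carried Pdgfra-CreER together with R26-DTA, so that tamoxifen turns on the toxin in cells in which the Pdgfra promoter is active. Both mice were given tamoxifen on 5 days from 9 weeks of age, and the muscle was taken 2 days after the last dose; the strain is not given in the sources used here. Each group was 1 mouse on 1 Cy5 array, so no value has a replicate, no p-value can be given, and genotype, animal and array cannot be told apart. The comparison asks how markers of 1 kind of fibroblast differ in muscle from which PDGFRα-positive mesenchymal progenitors were depleted.

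Adventitial fibroblasts lie in the outer coat of blood vessels and in the connective tissue sheets around muscle bundles. In many tissues, skeletal muscle among them, they are a subset of the PDGFRα-positive stromal cells, known for Pi16 and Dpp4 and often regarded as a reserve from which other fibroblasts can form. The remaining PDGFRα-positive cells lie between the myofibres and make much of the interstitial matrix. Several of the markers are shared: Cd34 is also made by endothelial cells and muscle stem cells, and Thy1 by T cells and neurons.

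Pi16 and Dpp4, which name this kind of fibroblast, gave different ratios, and the stretches before their transcription starts are shown so that the genes can be compared. RefSeq's promoter table for GRCm38.p6 held 5 of the 10 genes (Pi16, Dpp4, Cd34, Efemp1 and Sema3c). Each line gives the 250 bases before the start, 5′ to 3′ on the gene's strand, from chr17:29318632-29318881 on the plus strand for Pi16 and chr2:62412232-62412481 on the minus strand for Dpp4. Capitals mark matches on either strand to 6 motifs: the TATA box TATAAA, the GC box GGGCGG, the CCAAT box, the AP-1 motif TGANTCA, the TEAD motif CATTCC and the E-box CAGCTG. No matches overlapped in these stretches.
Pi16: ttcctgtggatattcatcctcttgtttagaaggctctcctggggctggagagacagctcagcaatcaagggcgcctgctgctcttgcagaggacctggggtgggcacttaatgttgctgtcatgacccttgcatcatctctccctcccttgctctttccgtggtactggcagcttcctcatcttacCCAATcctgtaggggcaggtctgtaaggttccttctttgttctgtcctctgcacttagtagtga
Dpp4: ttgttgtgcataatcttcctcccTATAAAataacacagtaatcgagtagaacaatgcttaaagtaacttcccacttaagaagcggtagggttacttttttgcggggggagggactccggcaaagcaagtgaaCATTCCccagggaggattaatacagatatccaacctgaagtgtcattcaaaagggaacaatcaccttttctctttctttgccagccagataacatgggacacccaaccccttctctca
The Pi16 stretch held 1 CCAAT, which 33.8% of 32851 promoters of this length hold. The Dpp4 stretch held 1 TATAAA and 1 CATTCC, found in 12.4% and 12.6% of promoters. This TATAAA begins 227 bases before the start, far from the place just ahead of the start where a TATA box sits. GC content was 52.4% for Pi16 and 43.6% for Dpp4, beside a median of 52.4% over those 32851 promoters, a set that leaves out 1 chromosome. Of the others, Sema3c had 3 GGGCGG and a GC content of 78.4%, Efemp1 had 1 GGGCGG and 1 TGANTCA, and Cd34 had none of the 6 motifs. These matches are descriptions of sequence, and the arrays carry no measurement of these stretches.

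Spot intensities are the scanner's medians in arbitrary units, and log2 ratios are depleted over control after background correction and quantile normalization over all probes. The deposited values are the authors' processed intensities, in which each array was scaled to a median of 25. The array of depleted muscle was the brighter one, with a median probe of 59.8 against 53.3, and without scaling only 9.38% of 18498 compared genes had a lower spot intensity on it. Positive control spots, whose target is not given in the sources used here, averaged 851 and 5668 on the control array and 1800.2 and 9837 on the depleted array, with a spot-to-spot coefficient of variation of 6.59% to 10.9% over 24 spots each. Between 2 probes of the same gene at or above the median brightness, log2 ratios scattered with an SD of 0.22 for 1 probe (343 genes). This SD measures disagreement between probes on the same 2 arrays. It holds neither an error that all probes of an array share nor the spread between animals. Pdgfra, the gene whose promoter drives the Cre, was at -0.94 (deposited values 273.1 and 116.6), and the 10 myofibre genes that mark the tissue, among them Ckm and Acta1, were all above background on both arrays.

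All 9 measured adventitial markers had a lower value on the array of depleted muscle, with a median log2 ratio of -0.43 beside -0.0035 for all compared genes. The differences were of unequal size. Clec3b was 2.21-fold lower, 6 markers lay between 1.23-fold and 1.49-fold lower, and Dpp4 and Scara5 were level with control, at -0.02 each and within the scatter between probes. A lower ratio of any size was found for 52.4% of all compared genes, a higher one for 47.4%, and a lower deposited value for 50.7%. At or under 80% of control lay 6 of the 9 markers, beside 5.52% of all compared genes, and 0 were higher by the same fold, beside 5.92%. At 1.5-fold only Clec3b was lower (1 of 9, beside 1.52%), and 0 were higher (beside 1.97%). Clec3b was also the 1 marker at least 2-fold lower, beside 0.427% of genes, and 0 were 2-fold higher, beside 0.497%. These shares are over genes of every brightness, dim ones included. Clec3b and the 6 markers with smaller differences were brighter than 67.8% to 93.0% of compared genes. In this setting no share over genes as bright as these was computed. The offset used in background correction draws ratios of dim genes toward 0, and in the deposited values 4 of 9 markers were at least 1.5-fold lower (Clec3b, Thy1, Pi16 and Efemp1), beside 7.25% of genes, and 0 were higher (beside 9.28%). Spot intensities before any scaling were lower for 6 of the 9 markers, beside the 9.38% of genes given above. In a bulk sample, fewer cells of a type and less RNA per cell cannot be told apart.

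**Figure D1:**
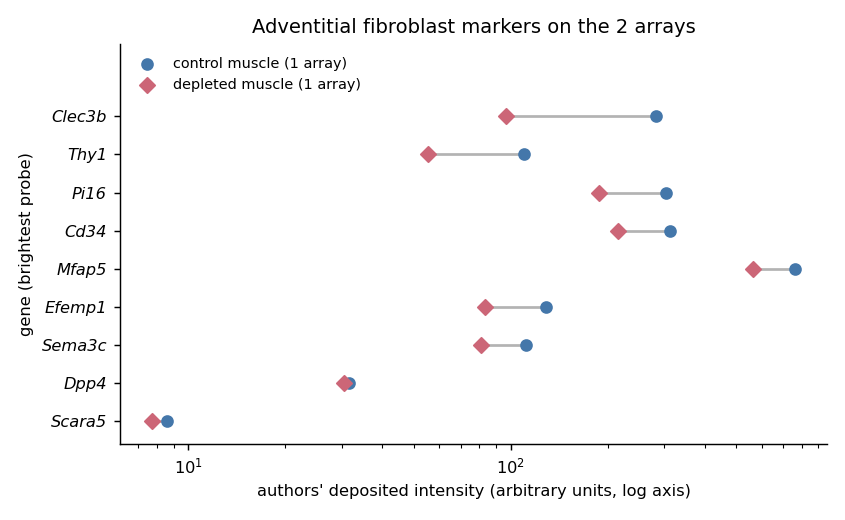
Authors' deposited intensity (log axis, arbitrary units) of the brightest probe of each marker on the control array (circles) and the depleted array (diamonds), 1 array each. All 9 diamonds lie left of their circles, from 281.5 to 96.8 for Clec3b at the top to 31.5 and 30.3 for Dpp4, whose symbols nearly touch.

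Among the markers at the cell surface, Pi16, Thy1 and Cd34 were lower, while Dpp4 and the dim Scara5 were level with control. Pi16 encodes a membrane-anchored protein of the CAP family. Its spot read 275 in control and 237 in depleted muscle, and the deposited table gives 303.8 and 187.9. The log2 ratio was -0.57, or 67.4% of control, and 1.67% of compared genes had a lower ratio. Thy1 encodes the GPI-anchored glycoprotein CD90 of fibroblasts, T cells and neurons. Its brighter probe read 122 and 96.1, with deposited values of 109.6 and 55.5 and a log2 ratio of -0.58. The dimmer probe of Thy1 read 38.7 and 39.1, close to the background limits of 37.4 and 38.5, and its ratio of -0.03 therefore adds little. Cd34 encodes a sialomucin of stromal, endothelial and stem cells. Its spot read 282 and 266, the deposited values were 312.6 and 214.6, and the log2 ratio was -0.46. For these 3 genes the difference exceeded the scatter between probes of 1 gene (SD 0.22), but with scaling to the median Cd34 was at -0.21, inside it, and Pi16 and Thy1 were at -0.33 and -0.43.

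Dpp4 encodes a membrane-bound peptidase that trims peptide hormones and chemokines. Its spot read 61.0 in control and 69.3 in depleted muscle, and the deposited table gives 31.5 and 30.3. The log2 ratio of -0.02 was smaller than the scatter between probes, and 38.7% of compared genes had a lower one. Dpp4 was of middling brightness, with 51.2% of compared genes dimmer. Its signal stood 42.6 and 41.5 SDs of the blank spots above their mean, so it was above the blanks on both arrays. The local background column was near its spot, at 54.0 beside 61.0 in control and 68.4 beside 69.3 in depleted muscle. With that column subtracted the log2 ratio was -2.10. The spot of Dpp4 was brighter on the array of depleted muscle while that of Pi16 was dimmer, and in the deposited values Dpp4 was 1.04-fold lower.

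The secreted markers were all lower. Clec3b encodes tetranectin, a plasminogen-binding C-type lectin of plasma and matrix. Its spot read 257 in control and 140.0 in depleted muscle, the deposited values were 281.5 and 96.8, and the log2 ratio was -1.15. Clec3b was the marker with the largest difference: only 52 of 18498 compared genes had a lower ratio, and its ratio lay below that of Pdgfra. With the local background column subtracted that order turned, with Clec3b at -0.80 and Pdgfra at -1.26. Mfap5 encodes a glycoprotein of elastic microfibrils. Its spot was equally bright on both arrays (636 and 639.7), while the deposited values were 763.6 and 565.7 and the log2 ratio was -0.43. The lower value of Mfap5 thus rests on the scaling of the brighter array. Efemp1 encodes fibulin-3, an extracellular matrix protein of elastic tissue. It read 137 and 126, with deposited values of 128.7 and 83.5 and a log2 ratio of -0.41.

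Sema3c encodes a secreted semaphorin that guides growing axons and vessels. Its spots read 124 and 123, the deposited values were 111.2 and 80.9, and the log2 ratio was -0.30, a difference that, like that of Mfap5, appears with scaling. Scara5, a scavenger receptor that binds ferritin, was the dimmest of the 9. Its spots read 43.0 and 45.2 and its deposited values were 8.6 and 7.7, giving a log2 ratio of -0.02. At 11.6 and 10.6 SDs of the blanks above their mean, Scara5 was detected, but a spot this dim gives little room for a lower ratio once the offset of 50 is added.

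**Figure D2:**
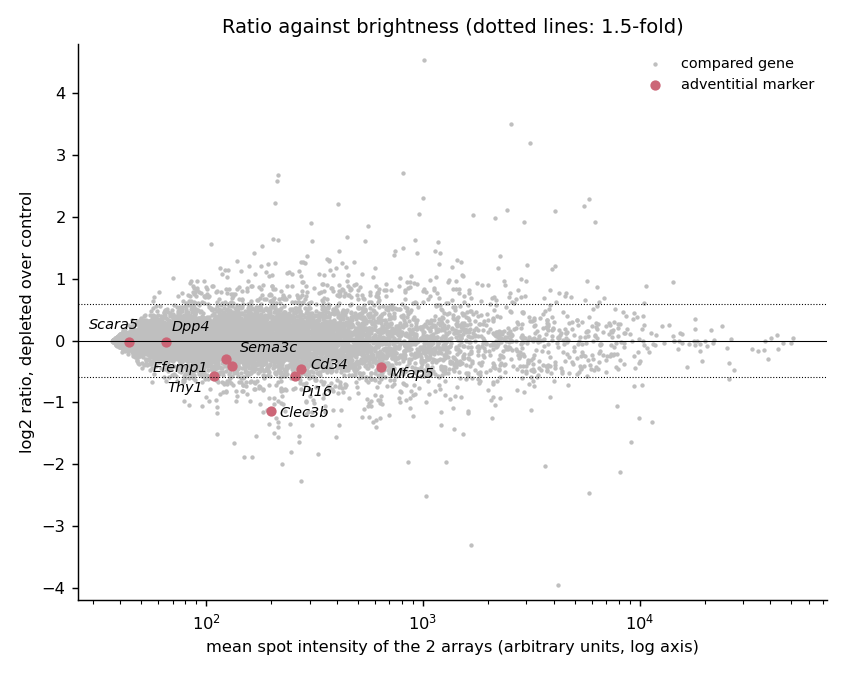
Log2 ratio of depleted over control muscle against the mean spot intensity of both arrays (log axis, arbitrary units) for 18498 compared genes (grey) and the 9 markers (red); dotted lines mark 1.5-fold. Clec3b is the only marker clearly below the lower line, at -1.15, Pi16 and Thy1 lie at it, and Dpp4, of middling brightness, and the dim Scara5 lie close to 0.

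The size of each ratio moved with the way the arrays were scaled. Scaling to the array medians in place of quantile normalization put the markers' median at -0.21, with 8 of 9 lower (beside 54.5% of compared genes) and Dpp4 at 0.02. Under that scaling 0.676% of compared genes were at least 1.5-fold lower and 4.84% higher, and of genes at or above the median brightness 25.3% had a ratio below 0. Clec3b stayed between -1.55 and -0.80 under all 11 alternative settings, and Pi16, Thy1, Cd34, Mfap5 and Efemp1 were below 0 in each. Some of these settings change only which genes are compared, so a marker's value cannot move under them. Subtraction of the local background column turned Sema3c to 0.16 and put Dpp4 at -2.10. For Dpp4 that column nearly equals the spot on the depleted array, at 68.4 beside 69.3. It was also near the spot there for Efemp1 (117.1 beside 126.0), the brighter Thy1 probe (87.0 beside 96.1) and Pi16 (208.9 beside 237.1).

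**Figure D3:**
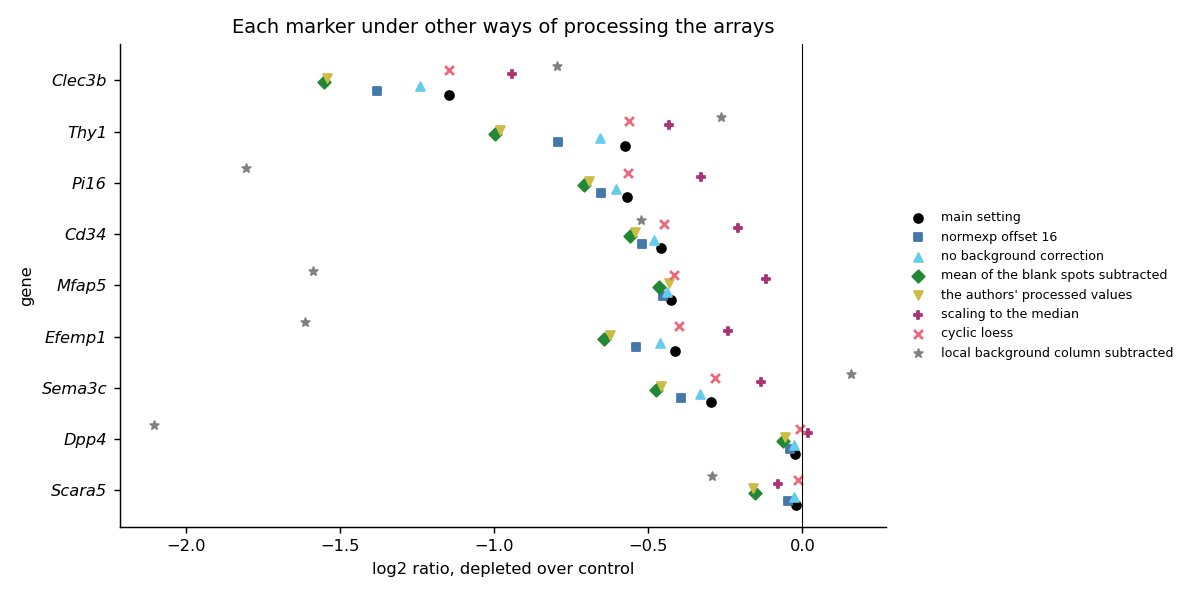
Log2 ratio of each marker under the main setting and 7 other ways of processing the arrays (symbols). Clec3b lies left of the other markers in all but the subtraction of the local background column (stars), scaling to the median (plus signs) gives ratios nearer 0 than the main setting for the 7 markers from Clec3b to Sema3c, and the stars scatter most, from -2.10 for Dpp4 to 0.16 for Sema3c.

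Further genes known for adventitial or Dpp4-positive progenitor cells were lower in part. Of 18 with a value, 14 had a lower ratio, beside 52.4% of all compared genes, and their median was -0.09, or -0.34 in the deposited values. At 1.5-fold, 2 were lower (beside 1.52%) and 0 were higher (beside 1.97%). Pcolce2, an enhancer of procollagen processing, was at -0.97 (deposited values 399.8 and 178.5), and Ackr3, a scavenging receptor for CXCL12, at -0.90 (407.4 and 196.9). Tppp3, a tubulin-binding protein, was at -0.48, and Cd248, the stromal receptor endosialin, at -0.44. Some of the rest were dim, but Anxa3, with spots of 308 and 480, was not and was at 0.19. It was 1 of 4 genes of this list with a higher ratio, the others being Uchl1 at 0.24, Wnt2 at 0.03 and Has1 at 0.03.

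Markers of interstitial fibroblasts, the neighbouring kind, were lower too. All 13 had a lower ratio (beside 52.4% of all compared genes), 5 of them by at least 1.5-fold (beside 1.52%), with a median of -0.52 in the main setting and -1.09 in the deposited values, where the adventitial markers had -0.54. Lum, a proteoglycan of collagen fibrils, was at -1.84, Dpt, a matrix protein that binds decorin, at -1.23, Abca8a, a lipid transporter, at -1.19, and Smoc2, a calcium-binding matrix protein, at -1.16. Summed over genes, the deposited values of the adventitial markers went from 2051 in the control to 1323 in the depleted mouse, and those of the interstitial ones from 2919 to 1299. Of 13 genes made by most fibroblasts, 11 were lower (beside 52.4%), 6 by at least 1.5-fold (beside 1.52%), with Col1a2 at -1.42, Col3a1 at -1.22, Gsn at -1.06 and Col1a1 at -0.97. The lists were chosen with earlier results of these data known, so their counts are descriptions. With 1 array per group, the difference between the 2 kinds of marker has no test.

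**Figure D4:**
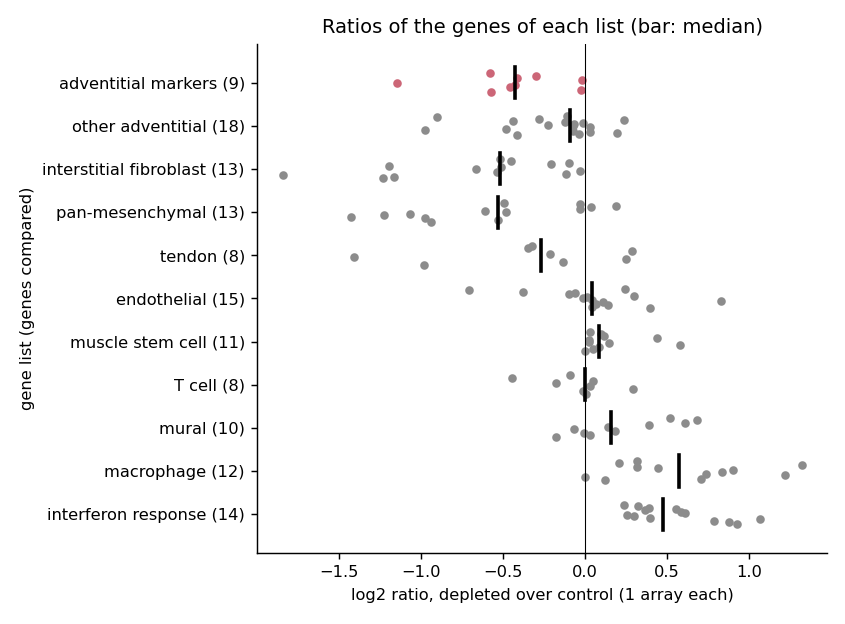
Log2 ratio of depleted over control muscle for each compared gene (points) of 11 lists, with the list's median as a bar and the number of genes in parentheses. The adventitial markers (red, median -0.43) lie left of 0 with the fibroblast lists, while the medians of the endothelial, stem cell and T cell lists lie between -0.0011 and 0.09.

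Relatives of the markers were mostly near control. Of 16 compared genes from the same families, 11 were lower (beside 52.4%), 0 of them by 1.5-fold (beside 1.52%), and the median was -0.07. Fap, the peptidase closest to Dpp4 and itself a fibroblast gene, was at -0.49 (deposited values 61.2 and 27.6), and the cytosolic relatives Dpp8 and Dpp9 were at 0.12 and -0.14. Mfap2, the partner of Mfap5 in microfibrils, was at -0.12, Scara3 at -0.30, and Clec3a at -0.05. Crispld2, like Pi16 a member of the CAP family, was at -0.34, and Podxl, a sialomucin of the Cd34 family, at -0.13. Of the class 3 semaphorins, Sema3a, Sema3b, Sema3e, Sema3f and Sema3g lay between -0.18 and 0, and Sema3d was below background on both arrays. The receptors through which these semaphorins act had a median of -0.08, with Nrp1 at -0.17, Plxna4 at -0.15, Nrp2 at 0.15 and Plxnd1 at -0.13. Ly6e, a relative of Ly6a, was at 0.56, Ly6c1 at 0.12 and Ly6d at 0.04.

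Markers of other cells that make Cd34 or Thy1 had medians near 0 in the main setting. In the deposited values the medians were 0.17 for endothelial, 0.22 for muscle stem cell and 0.09 for T cell markers. Higher ratios were found for 47.4% of all compared genes. Of 15 endothelial markers 10 were higher, with a median of 0.04 and Cldn5 at 0.83, Aqp1 at -0.71, Pecam1 at 0.40 and Sox17 at -0.38. Their summed deposited values were 5063 and 4349.8, a sum that Aqp1 leads. Of 11 muscle stem cell markers 10 were higher, with a median of 0.09, summed values of 648 and 832, and Cdh15 at 0.58, Sdc4 at 0.44, Chodl at 0.15 and Itga7 at 0.12. Of the 8 compared T cell markers (summed values 141.5 and 118), 4 were lower and 4 higher, with Cd28 at -0.44 (spots 76.1 and 61.2), Cd2 at 0.29, Cd4 at -0.17 and Cd247 at -0.09, and Cd3g was below background on both arrays. Mural cells, the contractile cells of vessel walls, had 7 of 10 markers higher, led by Tagln at 0.68, Acta2 at 0.61, Cnn1 at 0.52 and Myh11 at 0.39 (summed values 2628 and 3597).

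Several other lists also differed between the arrays. Of 8 tendon genes 6 were lower (beside 52.4% of compared genes), led by Kera at -1.41, Tnmd at -0.98, Chad at -0.35 and Comp at -0.32, with summed deposited values of 2411.5 and 2155.5. Beside 47.4% of compared genes, all 12 macrophage markers were higher (Lgals3 1.32, Lyz2 1.22, C1qc 0.91 and C1qb 0.84; summed values 3437 and 7633), as were all 14 interferon response genes (Psmb8 1.07, Ifit1 0.93, Ifit3 0.88 and Usp18 0.79; summed values 948 and 1809). Of 3 compared Schwann cell markers, S100b was at -0.29, Mbp at 0.17 and Sox10 at -0.02. Of the 10 myofibre genes 8 were lower, with a median of -0.12. In the deposited values all 10 were lower, with a median of -0.50 and a sum of 416243 in the control and 289076 in the depleted mouse. Those values multiply spots by 1.27 (control) or 0.939 (depleted), so a gene with equal spots comes out lower. Before scaling, the spots of Ckm, Tnnt3 and Atp2a1 were brighter on the depleted array, and those of the other myofibre genes were dimmer. The adventitial markers had a deposited median of -0.54, so myofibre genes were lower with them on the deposited scale. The same held in 2 other settings. Medians of myofibre genes and of the markers were -0.63 and -0.42 with cyclic loess normalization, and -0.19 and -0.21 with scaling to the median. In the main setting Pvalb was at -1.25, Myh1 at -0.43, Mb at -0.36 and Mylpf at -0.30. The part of these cells and of the mix of RNA between the animals in the markers' ratios was not tested.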

How the data were processed

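The authors deposited 1 scanner table per array with intensities, namely spot medians at 635 nm joined from 3 scan gains, per the file headers; the scanner is not given in the sources used here. The authors' second table holds processed intensities: on each array a straight line of the spot intensity, less about the mean of the blank spots, times 1.27 (control) or 0.939 (depleted).

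Spot intensities were background-corrected with normexp (limma 3.58.1, R 4.3.3, offset 50), log2-transformed and quantile-normalized across 23473 probes. A gene took its brightest probe. A probe counted as above background where it exceeded the mean of 2736 blank spots by over 2 SD, and 18498 genes above it on at least 1 array were compared; values below it were raised to the lowest value above it. Calls were at 1.5-fold, with 2-fold and 80% of control as alternatives. Symbols came from the platform's annotation, which names no gene for 2783 probes. The scripts were tested on simulated arrays. Tables and plots used Python 3.11.15, pandas 2.3.3 and matplotlib 3.10.9.

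The markers and the other gene lists were chosen with earlier results of these data known. Named genes were all markers, Pdgfra, the family relatives and the 4 members of each other list with the largest ratios. The further adventitial genes with a higher ratio were named as well. Centring each print block was an alternative chosen after the values were seen.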

Additional observations from a re-analysis of the deposited data

How the results depend on the processing

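No paired analysis was possible because the design has 1 mouse per genotype. Of 99 values of single markers under 11 alternatives, 77 moved by less than 0.18 and 22 by more. This bound is the SD of the log2 ratio of 1 probe among 1102 genes with 2 probes. The 77 include values that could not move. Dropping the filter, or asking for signal on both arrays, changes only the genes compared, and averaging a gene's probes can change only Thy1. Clec3b, the only marker called at 1.5-fold in the main setting, did not change sign. Sema3c turned to 0.16 with the local background subtracted, and Dpp4 to 0.02 with scaling to the median. At least 1.5-fold lower were 1 marker in the main setting (beside 1.52% of all compared genes), 3 with an offset of 16 (2.49%) or with no background correction (1.85%), 4 with the blank spots subtracted (7.67%) or in the authors' processed values (7.21%), and 5 with the local background subtracted, where 19.6% of all genes were as much lower and 21.5% higher. With the threshold at 80% of control there were 6 (beside 5.52%), and a looser threshold cannot give fewer. The markers' median was -0.80 with the local background subtracted and -0.21 with scaling to the median. The median of the other adventitial genes was -0.35 with the blank spots subtracted, -0.34 in the authors' processed values and -0.31 with the local background subtracted, and that of interstitial fibroblast genes was -1.10, -1.09 and -1.20 there and -0.79 with an offset of 16. A smaller offset moves dim genes away from 0 by construction; for the other changes the cause was not tested. With the mean of both probes Thy1 was at -0.30, since its dimmer probe lies near the blanks. Signal over the blanks limits Scara5 and that probe.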
